A study of Mus musculus with 24 samples.

Results

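Heart and striated muscle genes, 10 in number, were followed in the RNA of extracellular vesicles, the membrane-enclosed particles that cells release, precipitated from mouse plasma. The genes were taken from the count table by symbol, and all 10 were among its 21960 genes. Actc1, Pln, Myh6, Myl2, Tnnt2 and Tnni3 are characteristic of heart muscle, Ttn and Actn2 are shared by heart and skeletal muscle, and Acta1 and Ckm are the skeletal muscle genes against which the heart genes were set. Ckm is also made in the heart, and nothing here shows that Acta1 is confined to skeletal muscle. Myl2 is also made in slow skeletal fibres, and nothing here shows that the other heart genes are confined to the heart.

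Striated muscle contracts when myosin of the thick filament pulls on actin of the thin filament inside the sarcomere. Calcium starts each beat by binding the troponin complex on the thin filament, and its return to the sarcoplasmic reticulum by the pump Atp2a2 ends it. Heart and skeletal muscle build the same machine from different gene copies, so most heart genes have a skeletal counterpart. Cardiac proteins of this kind, the troponins among them, are measured in blood as signs of heart muscle injury.

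Mice of the inbred strain C57BL/6J, all male, underwent bile duct ligation, which stops bile flow and causes cholestasis, or a sham operation. Plasma was taken 8 or 15 days after surgery, which gave 4 groups of 6 libraries: ligation at day 8, sham at day 8, ligation at day 15 and sham at day 15. No genotype other than the strain and no drug was given in the labels. Blood was drawn by puncture of the heart in every group, and the labels do not say that each library came from a separate animal, so p-values measure the spread between libraries.

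Ligated libraries of day 8 held 167939 to 937963 counts each, against 101733 to 824640 in the sham libraries. Ligated libraries of day 15 held 315404 to 465744 counts, against 157133 to 351201 in the sham libraries. Of the day 8 libraries, numbers 4 to 6 had more counts than numbers 1 to 3, both with ligation and with sham surgery. The gene model of Lars2 alone held 47.1% ± 4.19 of the counts (SD, n = 24). The tissue label reads liver and the site label reads extracellular vesicles. In the sham libraries of day 8 the 20 hepatocyte markers summed to a median of 74.5 normalised CPM (counts scaled to a common library total), against 64900 for the 14 erythroid markers, so hepatocyte transcripts were scarce where the label reads liver. Values below are CPM normalised by TMM unless another unit is named.

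Actc1 and Acta1 encode the heart and skeletal copies of sarcomeric actin, and Pln encodes phospholamban, the inhibitor of the calcium pump of the heart. Their upstream sequences are shown because Actc1 and Pln carry the difference described below and Acta1 is the skeletal counterpart of Actc1. The stretch shown runs from 250 to 21 bases before the transcription start annotated by RefSeq (GRCm38.p6), 5′ to 3′ on the strand of the gene, with capitals marking a CArG box, the recognition motif of serum response factor, or a MEF2 site. The windows are chr2:114052896-114053125 (minus strand) for Actc1, chr8:123894796-123895025 (minus strand) for Acta1 and chr10:53337436-53337665 (plus strand) for Pln.
Actc1: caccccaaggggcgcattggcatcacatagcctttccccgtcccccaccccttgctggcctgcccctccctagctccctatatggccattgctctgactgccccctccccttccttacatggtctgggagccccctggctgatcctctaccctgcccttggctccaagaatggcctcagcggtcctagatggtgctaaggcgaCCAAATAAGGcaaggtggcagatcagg
Acta1: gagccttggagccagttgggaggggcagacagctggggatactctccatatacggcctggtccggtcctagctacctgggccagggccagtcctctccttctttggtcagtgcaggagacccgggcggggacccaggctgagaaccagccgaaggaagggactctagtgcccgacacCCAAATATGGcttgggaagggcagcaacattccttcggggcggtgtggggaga
Pln: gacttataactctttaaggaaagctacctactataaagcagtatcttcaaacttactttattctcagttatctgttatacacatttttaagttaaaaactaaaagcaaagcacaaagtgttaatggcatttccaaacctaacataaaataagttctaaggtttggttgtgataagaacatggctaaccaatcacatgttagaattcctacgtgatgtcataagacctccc
Both strands of the 250 bases before the start were searched in the 12 RefSeq windows of the 10 genes. A CArG box was present in the windows of Actc1, with its first base 47 bases before the start, and of Acta1, 73 bases before it, and in 1.47% of the 32851 windows of the whole RefSeq table. A MEF2 site was present in the window of Ttn, 166 bases before the start, and in 2.92% of all windows. The commoner motifs CANNTG (E-box) and GATA were found in 66.2% and 53.6% of all windows; the Pln window held 1 E-box and 3 GATA motifs, and the Actc1 window held neither. A match describes the letters of the window, and an absent match says that these letters were not in it. The RefSeq start was not always the gene start given below. The Myl2 windows start at bases 122092474 and 122092939, before the annotated gene, which starts at 122100951. The Ckm window starts at 19410844, inside the gene, which starts at 19404776. For Myl2 and Ckm the annotated gene start was therefore not searched.

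In each pair compared, the heart copy had more counts than its skeletal copy. Over all 24 libraries Actc1 had 185 counts and Acta1 22, so the skeletal copy made up 10.6% of the pair (95% exact Clopper-Pearson interval 6.78 to 15.6%, counting error only). Myh6, the main myosin heavy chain of the adult mouse heart, had 759 counts, and Myh4, a fast skeletal myosin heavy chain, had 7, or 0.914% of the pair (interval 0.368 to 1.87%). Myl2, the regulatory light chain of the ventricle, had 331 counts, and its fast skeletal counterpart Mylpf had 20, or 5.7% (interval 3.51 to 8.66%). In 8 such pairs, also spanning troponin T, troponin I, troponin C, the essential light chain and the calcium release channel, the heart copies summed to 1969 counts and the skeletal copies to 104. These sums take 1 skeletal copy for each heart gene, and other skeletal copies had more counts than the ones taken. Myh2 had 14 counts and Myh1 11, against 7 for Myh4, and Tnnt1 of slow fibres had 46, against 8 for Tnnt3. The skeletal shares thus depend on the copy chosen. Myh4, Mylpf, Tnnt3, Tnni2, Tnnc2 and Myl1 are copies of fast fibres, so their pairs do not set heart against slow skeletal muscle. Myl2 (331 counts), the essential light chain Myl3 (143) and troponin C Tnnc1 (62), counted as heart copies, are also made in slow skeletal fibres. The sums thus do not separate heart from slow skeletal muscle. With the copies taken, the excess held in every group: heart and skeletal copies had 284 and 19 counts in ligated and 750 and 31 in sham libraries of day 8, and 385 and 29 in ligated and 550 and 25 in sham libraries of day 15. The sequences of the Actc1 and Acta1 transcripts were not compared. No source used here says how any reads shared by them were divided, so their split is uncertain.

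**Figure D1:**
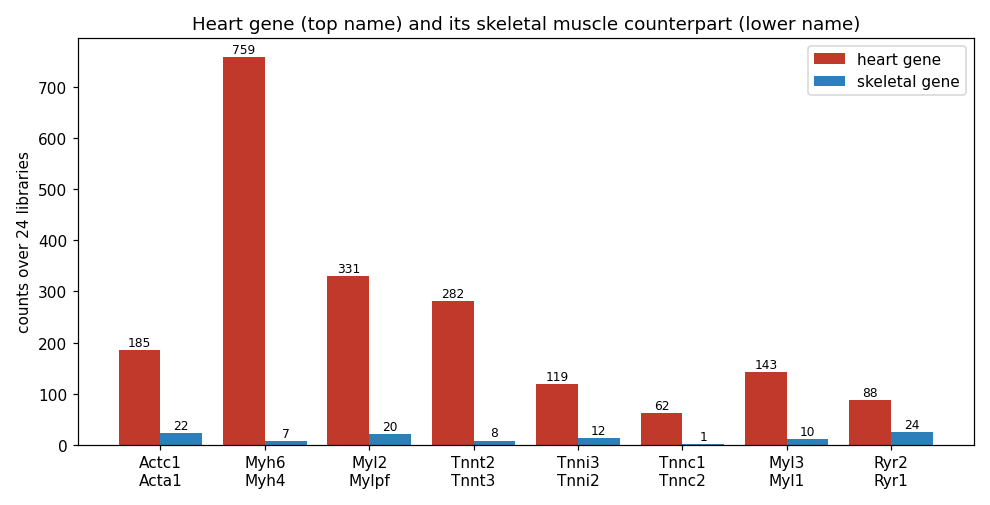
Counts over all 24 libraries (y axis) of 8 heart genes and their skeletal muscle counterparts (x axis, heart gene named above its counterpart). Myl2, Myl3 and Tnnc1, drawn as heart genes, are also made in slow skeletal fibres. In each pair the heart gene is the higher bar, from 88 against 24 for Ryr2 and Ryr1 to 759 against 7 for Myh6 and Myh4; other skeletal copies, not drawn, had more counts than Myh4 (Myh2, 14) and Tnnt3 (Tnnt1, 46).

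Per kilobase of annotated exon, the sham libraries of day 8 held most Myl2, at 29.8 ± 19.2 CPM per kilobase, followed by Actc1 at 20.8 ± 13.8 and Myh6 at 13.7 ± 7.17 (SD, n = 6). Tnni3 (9.06 ± 5.62), Pln (8.84 ± 4.78), Tnnt2 (4.91 ± 2.23) and Ckm (4.29 ± 4.81) came next on the same scale. Actn2 (2.28 ± 1.34), Acta1 (2.04 ± 2.19) and Ttn (1.25 ± 0.765) were lowest, although Ttn, whose exons span 116825 bases, had the most counts of the 10 genes, 1150 in all. Neighbours in this order differed by less than the larger of their standard deviations. The length was the union of the exons of all annotated transcripts, 7752 bases for Tnnt2, so the order is not one of transcript abundance. Acta1 had no count in 12 of the 24 libraries.

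Ligation against sham surgery asked whether cholestasis alters the RNA that circulates in vesicles. The heart actin gene Actc1 and the pump inhibitor gene Pln fell at day 8, and no tested member rose on either day. Of the 10 genes, 6 (Actc1, Pln, Myh6, Myl2, Tnnt2 and Ttn) had enough counts for the test across 4112 genes, and 2 of those 6 passed as lower, where 0.365% of all tested genes did (15 of 4112) and 2.77% passed as higher. The filter can admit a gene through the group in which it is high, so counts over the tested members describe these 6 genes only. In plasma vesicle RNA, fewer vesicles from a cell type and less of its RNA per vesicle cannot be told apart. Blood was drawn by puncture of the heart in every group, and the part of that puncture in the heart gene levels was not tested.

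Actc1 (ENSMUSG00000068614, GRCm38 chromosome 2, 114047282 to 114053548, minus strand) had 0 to 10.8 CPM with a median of 4.39 after ligation, against 3.56 to 63.6 CPM with a median of 37.2 after sham surgery at day 8. These levels rest on 15 counts in the ligated and 94 in the sham libraries. All 6 ligated libraries lay below the sham median, 3 of them below the lowest sham library, and the groups overlapped because sham library 5 was as low as the ligated ones. The log2 fold change was -2.54 (SE 0.60, 95% interval -3.78 to -1.3, adjusted p = 0.0182, edgeR quasi-likelihood test with Benjamini-Hochberg adjustment). The call held when 11 of the 12 day 8 libraries were left out in turn and was lost without sham library 6, the highest, with a log2 fold change of -2.16 and an adjusted p of 0.0549.

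Pln (ENSMUSG00000038583, chromosome 10, 53337667 to 53345987, plus strand) had 0 to 15.8 CPM with a median of 2.39 after ligation, against 5.34 to 38.2 CPM with a median of 24.5 after sham surgery. It was without a count in 3 of the 6 ligated libraries and in none of the sham libraries, and 4 ligated libraries lay below the lowest sham library. The log2 fold change was -2.16 (SE 0.61, 95% interval -3.42 to -0.9, adjusted p = 0.0495), at the edge of the threshold. The call was kept in 3 of the 12 refits without 1 library, those without ligated library 3, ligated library 6 or sham library 5, while the log2 fold change stayed between -2.62 and -1.77 and the adjusted p reached 0.124. With the library number as a block, a pairing that the labels do not give, the adjusted p of Pln was 0.0555 (log2 fold change -2.12, edgeR). Exons of Pln overlap a predicted gene over 1644 bases and Cep85l over 141 bases on the opposite strand, and no source used here gives the strand setting of the counting. Exons of Myh6, Myl2, Tnni3, Ttn and Ckm also overlap another gene, over 114, 60, 86, 453 and 451 bases in that order. The overlap of Tnni3, with Dnaaf3, is on the same strand, and the others are with genes on the opposite strand.

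**Figure D2:**
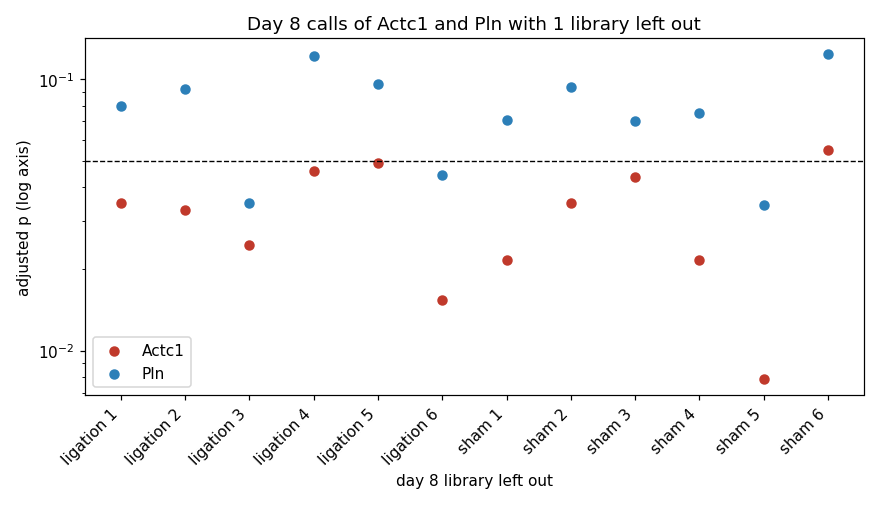
Benjamini-Hochberg adjusted p (log y axis) of Actc1 and Pln for ligation against sham at day 8 after leaving out each day 8 library in turn (x axis), with the dashed line at 0.05. Actc1 lies above the line without sham library 6 alone (0.0549), and Pln lies above it in 9 of 12 refits, up to 0.124.

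The depth of the day 8 libraries moved with their number, so both genes were also compared within libraries 1 to 3 and within libraries 4 to 6. The log2 fold change of Actc1 was -2.7 in libraries 1 to 3 and -2.37 in libraries 4 to 6, and that of Pln was -2.07 and -2.16. None of the 4 values passed the test with 3 libraries a group (adjusted p = 0.0745 and 0.252 for Actc1, 0.442 and 0.265 for Pln, edgeR). All 4 values lay below 0.

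The other tested genes of the contractile apparatus did not pass at day 8. Myl2 (ENSMUSG00000013936, chromosome 5, 122100951 to 122113472, plus strand) had 3.19 to 50.2 CPM with a median of 32 after ligation, against 19.6 to 124 with a median of 44 after sham surgery. Its log2 fold change was -1.31 (SE 0.54, adjusted p = 0.246), and with the library number as a block it was -1.41 and passed (adjusted p = 0.0345, edgeR). Tnnt2, the troponin T of the heart (ENSMUSG00000026414, chromosome 1, 135836354 to 135852260, plus strand), had 1.37 to 50.2 CPM (median 25.9) after ligation and 17.8 to 57.2 CPM (median 39.2) after sham surgery, with a fold change of -0.97 on the log2 scale (SE 0.65, adjusted p = 0.527).

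Myh6 (ENSMUSG00000040752, chromosome 14, 54941921 to 54966927, minus strand) had 12.8 to 132 CPM with a median of 65 after ligation, against 34.6 to 177 with a median of 90.2 after sham surgery. Its log2 fold change was -0.65 (SE 0.62, adjusted p = 0.684), with an interval of -1.92 to 0.62 that spans both directions. Within libraries 1 to 3 the value was 0.13. In all, 4 of 6 ligated libraries lay below the sham median, and the groups overlapped over most of their range.

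Tnni3, the troponin I of the heart (ENSMUSG00000035458, chromosome 7, 4518305 to 4524229, minus strand), missed the filter with 4 counts in the ligated and 49 in the sham libraries of day 8. It had 0 to 14.4 CPM with a median of 0.599 after ligation, against 7.12 to 35.2 with a median of 16.7 after sham surgery. In 5 of the 6 ligated libraries it lay below every sham library, and ligated library 1, with 2 counts, was the exception. In a fit to all 18710 genes with a count, where 0.187% of genes passed as lower and 1.41% as higher at day 8, its log2 fold change was -3.26 (SE 0.65, adjusted p = 0.000115, edgeR). Reading the genes below the filter in that fit was a choice made after the data were seen. The call held in 12 of 12 refits without 1 library (-4.04 to -2.93), with adjusted p-values up to 0.00513 (edgeR). It also held with the block (adjusted p = 0.000211, edgeR) and with DESeq2 (-3.4, adjusted p = 0.0378). The fit without the filter also passed genes between the days after sham surgery, where the filtered fit passed none. It was thus the more lenient fit, and refits of it without 1 library do not check that.

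**Figure D3:**
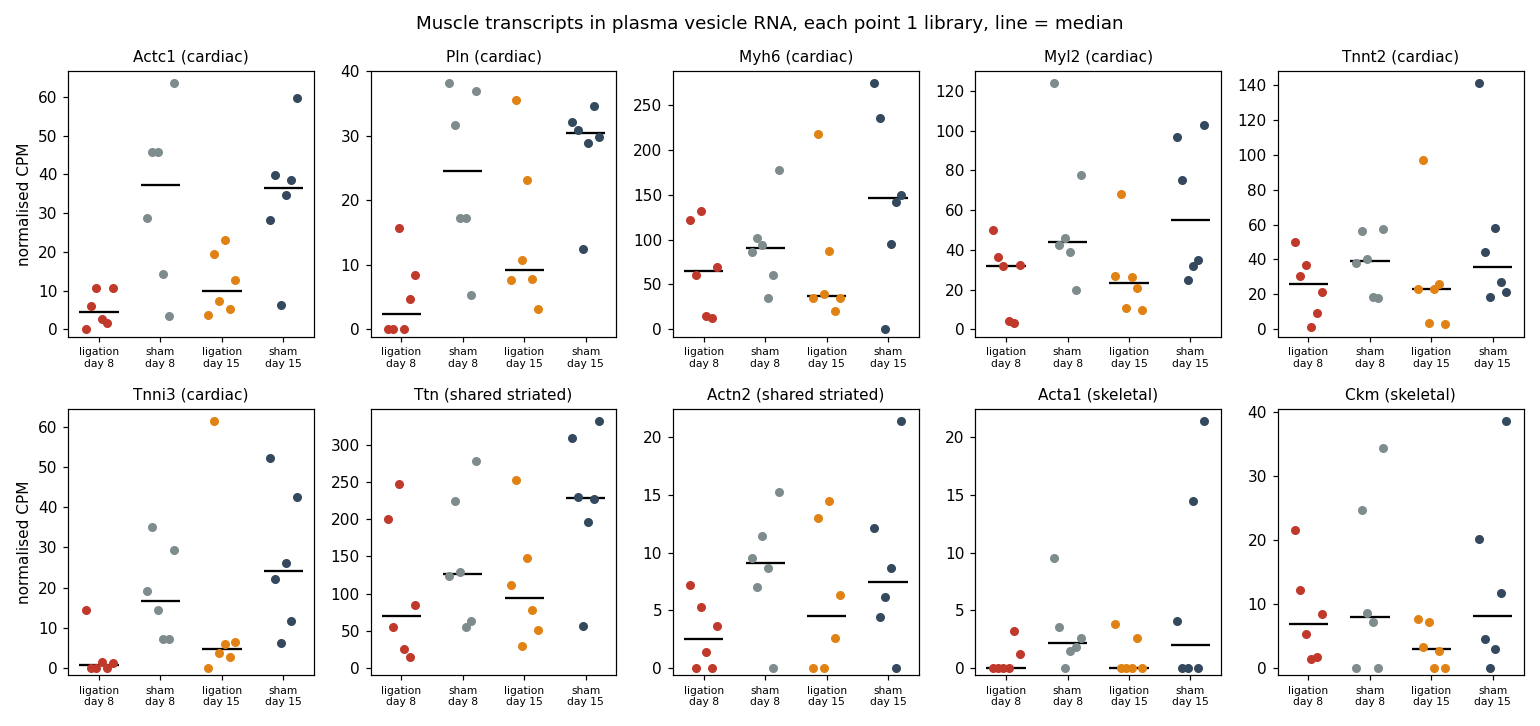
Normalised CPM (y axes) of the 10 genes in each of the 24 libraries by group (x axes); each point is 1 library and each line the median of 6. At day 8 Actc1, Pln and Tnni3 lie near 0 in most ligated libraries, against sham medians of 37.2, 24.5 and 16.7, while Myh6, Tnnt2 and Ttn overlap widely.

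The genes shared with skeletal muscle overlapped between the groups. Ttn (ENSMUSG00000051747, chromosome 2, 76703980 to 76982547, minus strand), the giant elastic protein that spans the sarcomere from disc to midline, had 14.4 to 248 CPM (median 69.2) in ligated and 54.8 to 279 CPM (median 127) in sham libraries of day 8. The log2 fold change was -0.65 (SE 0.57, adjusted p = 0.641), and it was 0.04 within libraries 1 to 3. Actn2, the alpha-actinin of the Z-disc (ENSMUSG00000052374, chromosome 13, 12269426 to 12340760, minus strand), had 6 counts after ligation and 25 after sham surgery, with medians of 2.48 and 9.11 CPM. Its log2 fold change without the filter was -1.78 (adjusted p = 0.38).

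Acta1 and Ckm, the skeletal pair, were scarce in every group. Acta1 (ENSMUSG00000031972, chromosome 8, 123891769 to 123894751, minus strand) had a median of 0 CPM in ligated and 2.16 CPM in sham libraries of day 8, from 3 and 6 counts, a ratio of 0.521 (exact interval 0.0843 to 2.44, counting error only). Ckm, the creatine kinase of muscle (ENSMUSG00000030399, chromosome 7, 19404776 to 19422841, plus strand), had 1.37 to 21.5 CPM (median 6.83) after ligation and 0 to 34.3 CPM (median 7.9) after sham surgery, and 3 of 6 ligated libraries lay below the sham median. From 15 and 42 counts, the ratio for Ckm was 0.372 (exact interval 0.192 to 0.685, counting error only). Of the 42 sham counts, 27 were in sham library 6. The log2 ratio of mean CPM was -0.57 and ran from -1.12 to 0.05 with any 1 library left out. Across libraries, in the fit without the filter, the log2 fold change of Ckm was -1.17 and did not pass (adjusted p = 0.546, edgeR).

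Summed over the 6 heart genes, the day 8 libraries held 24.7 to 237 CPM with a median of 138 after ligation, against 114 to 441 with a median of 285 after sham surgery. The ratio of the mean sums was -1 on the log2 scale and lay between -1.24 and -0.78 with any 1 library left out. Within libraries 1 to 3 the sums averaged 199 ± 57.3 CPM after ligation and 302 ± 39.8 after sham surgery, and within libraries 4 to 6 they averaged 66.8 ± 66.8 and 229 ± 184 (SD, n = 3 each). The sum of Acta1 and Ckm had medians of 7.43 CPM after ligation and 9.11 after sham surgery, with a log2 ratio of means of -0.78 that ran from -1.24 to -0.32. The difference between the heart and the skeletal ratio was not tested.

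**Figure D4:**
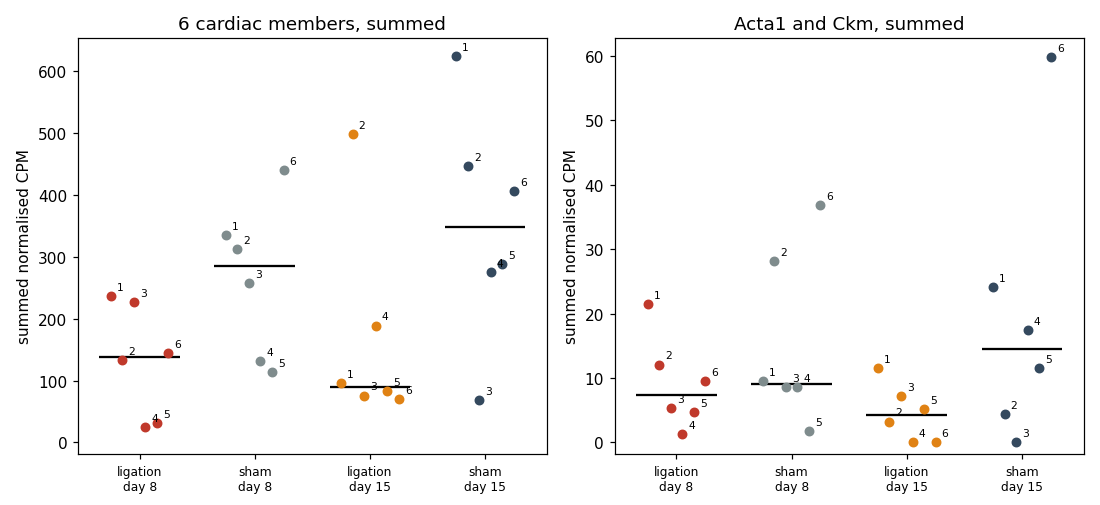
Summed normalised CPM (y axes) of the 6 heart genes (left) and of Acta1 and Ckm (right) in each library by group (x axes); numbers are library numbers and lines are medians of 6. Heart sums have medians of 138 in ligated and 285 in sham libraries of day 8, and of 89.3 and 347 at day 15, with ligated library 2 at 499.

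At day 15 no tested member passed. All 6 tested members had a log2 fold change under 0, with a median of -1.04 over them and -0.018 over all 4112 genes, of which 51.6% were under 0. At day 8 the same 6 were also under 0, with a median of -1.14 against 0.024 over all genes, of which 47.5% were under 0. Among all tested genes, 1.07% passed as lower and 3.48% as higher at day 15. At an unadjusted p under 0.05, 3 members were lower at day 8 (Actc1, Pln and Myl2), where 4.6% of genes were lower and 9.7% higher. At day 15, 2 members were (Actc1 and Myl2), where 9.07% of genes were lower.

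Actc1 had 3.82 to 23.2 CPM with a median of 9.94 after ligation, against 6.18 to 59.8 with a median of 36.6 after sham surgery at day 15. Every ligated library lay below the sham median, and sham library 3 lay among the ligated ones. The log2 fold change was -1.52 (SE 0.57, interval -2.69 to -0.35, adjusted p = 0.129). Myl2 had 9.51 to 68 CPM (median 23.4) after ligation and 24.7 to 103 CPM (median 54.9) after sham surgery, with a fold change of -1.17 on the log2 scale (SE 0.54, adjusted p = 0.234).

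Pln had 3.17 to 35.6 CPM with a median of 9.3 after ligation, against 12.4 to 34.7 with a median of 30.4 after sham surgery at day 15. In 4 ligated libraries Pln lay below the lowest sham library, while ligated library 2 was above every sham library. The log2 fold change was -0.95 (SE 0.55, interval -2.07 to 0.18, adjusted p = 0.385). For Myh6, 20.8 to 217 CPM (median 37.3) after ligation stood against 0 to 274 CPM (median 146) after sham surgery. Its log2 fold change was -1.06 (SE 0.59, adjusted p = 0.361).

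Tnnt2 had medians of 23.1 CPM in ligated and 35.6 CPM in sham libraries of day 15, within ranges of 3.17 to 97.2 and 18.5 to 141 CPM, and a fold change of -0.84 on the log2 scale (SE 0.61, adjusted p = 0.514). That value was -1.69 without ligated library 2 and -0.26 without sham library 1. Ttn had 28.9 to 253 CPM (median 94.3) after ligation and 55.6 to 333 CPM (median 229) after sham surgery, with a fold change of -1.02 on the log2 scale (SE 0.54, adjusted p = 0.327). For both genes 5 of 6 ligated libraries lay below the sham median. Tnni3 had 0 to 61.5 CPM (median 4.71) after ligation and 6.18 to 52.3 CPM (median 24.1) after sham surgery, and its log2 fold change without the filter was -1.06 (adjusted p = 0.23).

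Of the remaining genes, Actn2 had medians of 4.47 CPM in ligated and 7.43 CPM in sham libraries of day 15. Acta1 had 2 counts after ligation and 11 after sham surgery, a ratio of 0.141 (exact interval 0.0152 to 0.645, counting error only), in 2 and 3 libraries with a count. Without the filter its log2 fold change was -2.43 (adjusted p = 0.187). Ckm had 0 to 7.64 CPM (median 2.92) after ligation and 0 to 38.5 CPM (median 7.99) after sham surgery, with a log2 fold change of -1.93 (adjusted p = 0.125). The sum of the skeletal pair had medians of 4.21 CPM after ligation and 14.5 CPM after sham surgery, and sham library 6 alone held 59.8 CPM. From 8 and 30 counts, the log2 ratio of the mean sums was -2.11, between -2.64 and -1.35 with any 1 library left out. Its difference from the heart gene ratio of day 15, given below, was not tested.

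Single libraries set much of the spread at day 15. Ligated library 2 was the highest of its group in 6 of the 10 genes, with a heart gene sum of 499 CPM where the next ligated library had 189. Sham library 3 was the lowest of its group in 9 of the 10 genes, with a sum of 67.9 CPM. In the fit without the filter, where 0.722% of genes passed as lower and 2.96% as higher, the value of Tnni3 depended on ligated library 2. It was -2.72 without that library (adjusted p = 0.00146) and did not pass in the other 11 refits without 1 library. Leaving out the highest ligated value can only lower the ligated level, so that pass supports no difference. The heart gene sum had medians of 89.3 CPM after ligation and 347 CPM after sham surgery, and the log2 ratio of the means was -1.06, between -1.78 and -0.82 with any 1 library left out.

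No member had its 6 ligated libraries all below its 6 sham libraries on either day, an arrangement seen in 0.34% of the tested genes at day 8 and in 0.803% at day 15.

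**Figure D5:**
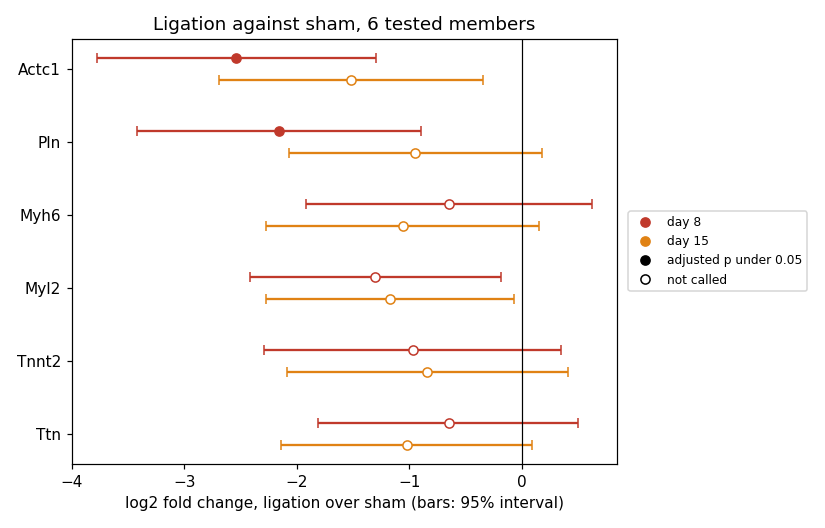
Log2 fold change of ligation over sham (x axis, bars are 95% intervals) for the 6 tested genes (y axis) at day 8 and day 15; filled points passed at an adjusted p under 0.05. Actc1 (-2.54) and Pln (-2.16) at day 8 are filled, and all 12 points lie below 0.

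The comparison of days asked whether the difference between ligation and sham surgery moved with time. No tested member passed, and no gene of the 4112 did in the edgeR fit, while 2.12% of genes were higher and 3.57% lower at an unadjusted p under 0.05. Among the 6 tested members the largest value was that of Pln, a difference of 1.21 on the log2 scale (SE 0.82, interval -0.48 to 2.9, adjusted p = 0.911), followed by Actc1 at 1.02 (SE 0.84, interval -0.71 to 2.75, adjusted p = 0.959). In the fit without the filter Tnni3 had a larger difference, 2.2 (SE 0.83, adjusted p = 0.544). Of the 6 tested members 2 had a difference under 0, as did 53.7% of all genes. The calls at day 8 and their absence at day 15 are therefore not shown to be a difference between the days.

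Within the ligated mice, no tested member passed between day 15 and day 8, where 2.26% of genes passed as higher and 2.09% as lower. All 6 log2 values lay above 0, where 53.4% of genes lay under 0, but 4 of them lay below 0 without ligated library 2 of day 15 (Myh6 -0.45, Myl2 -0.15, Tnnt2 -0.22 and Ttn -0.15). Pln had the largest value of the 6, 1.54 (SE 0.66, adjusted p = 0.21), with medians of 9.3 CPM at day 15 and 2.39 CPM at day 8. It was the 1 tested member at an unadjusted p under 0.05, where 7.49% of genes were higher and 9.68% lower. Without the filter Tnni3 was higher at day 15 (log2 fold change 2.7, SE 0.7, adjusted p = 0.00613), from 25 counts at day 15, 19 of them in library 2, and 4 counts at day 8. That fit was not repeated without library 2. Within the sham mice the log2 changes of the 6 tested members ran from 0.07 to 0.7, none under 0 where 48% of genes were, and no gene of the 4112 passed in either direction, with 4.64% higher and 6.03% lower at an unadjusted p under 0.05.

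The heart genes varied together from library to library. Over the 24 libraries the 15 pairs of tested members had Pearson correlations of log2 CPM from 0.479 to 0.854 with a median of 0.683, where the median over pairs of all tested genes was 0. These libraries share group differences and depth, so the values are a description. Among the other tested genes closest to the summed heart genes were Mb (r = 0.855), Hspg2 (0.783), Mllt6 (0.749) and Stard8 (0.722). Mb encodes myoglobin, the oxygen store of striated muscle, and Hspg2 encodes the basement membrane proteoglycan perlecan. With group means removed their correlations ran from 0.656 to 0.805.

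Other muscle genes were mostly below the filter. Of 29 further heart genes, 1 was tested, the transcription factor gene Tbx20, and it did not pass at day 8 (-0.86 on the log2 scale, adjusted p = 0.586) or day 15 (-1.65, adjusted p = 0.172). Their sum had medians of 165 CPM in ligated and 172 CPM in sham libraries of day 8, and of 188 and 148 CPM at day 15. Of 23 further genes shared by both muscles, 3 were tested and none passed. Mb had 1.37 to 28.8 CPM (median 17.7) in ligated and 10.7 to 84.5 CPM (median 32) in sham libraries of day 8, with log2 fold changes of -1.51 (SE 0.58, adjusted p = 0.196) at day 8 and -1.15 (SE 0.54, adjusted p = 0.253) at day 15. Atp2a2, the calcium pump that phospholamban inhibits, had medians of 20.8 CPM in ligated and 50.4 CPM in sham libraries of day 8 and a fold change of -0.82 on the log2 scale (SE 0.43, adjusted p = 0.399). Myom1, a protein of the sarcomere midline, had 0.08 (SE 0.41, adjusted p = 0.974).

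None of 34 further skeletal muscle genes was tested, and 5 (Myf5, Myf6, Myog, Casq1 and Myoz1) had no count in any library. Their sum had medians of 59.8 CPM in ligated and 50.5 CPM in sham libraries of day 8, and of 53 and 53.5 CPM at day 15. Eno3, a muscle enolase, supplied 132 counts and Pygm, the muscle glycogen phosphorylase, 88. Of 6 transcription factor genes active in muscle and elsewhere, 4 were tested and Mef2d fell at day 15. It had 25.9 to 53.5 CPM (median 40.9) after ligation and 30.9 to 102 CPM (median 78.3) after sham surgery, with a fold change of -0.88 on the log2 scale (SE 0.24, adjusted p = 0.0312). That call was lost in 8 of 12 refits without 1 library, with an adjusted p of up to 0.0805 without ligated library 2. At day 8 the value was -0.71 (SE 0.23, adjusted p = 0.0919).

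Markers of other tissues were read beside the heart genes. Of 13 smooth muscle markers 6 were tested and none passed, and Myl9, the most abundant, had a value of 0.55 on the log2 scale (SE 0.42, adjusted p = 0.601) at day 8. Of 13 cartilage markers present, 1 was tested, the cartilage collagen gene Col2a1, which fell at day 8 (log2 fold change -3.96, SE 0.84, adjusted p = 0.00861) with medians of 1.6 CPM after ligation and 36 CPM after sham surgery. The cartilage list summed to 8.22 to 68.6 CPM in ligated and 21.1 to 140 CPM in sham libraries of day 8, and its part in the heart gene result was not tested. Of 9 fibroblast markers 4 were tested, and the collagen genes Col1a1 (-1.55, adjusted p = 0.00992) and Col1a2 (-1.43, adjusted p = 0.0114) fell at day 15. That list summed to 335 to 621 CPM in ligated and 531 to 1240 CPM in sham libraries of day 15, and its part in the result was not tested. None of 11 tested endothelial markers, 15 tested platelet markers or 1 tested fat cell marker (Fabp4) passed between ligation and sham surgery, and none of 10 lung or 9 skin markers was tested, with Hopx (169 counts) and Dsp (153 counts) the most abundant.

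Many liver and red cell markers rose. Of 17 tested hepatocyte markers, 14 rose at day 8 and 17 at day 15, with Hpx, Apob and Trf at the smallest p-values on both days, and the list summed to medians of 1050 CPM in ligated and 74.5 CPM in sham libraries of day 8, and of 9910 and 117 CPM at day 15. Of 13 tested erythroid markers, 8 rose at day 8, Alas2 and Hbb-bs among them, with medians of the sum of 131000 CPM after ligation and 64900 CPM after sham surgery, and none passed at day 15. The part of these markers in the heart gene result was not tested. Without TMM, on raw library sizes, the log2 ratio of the mean heart gene sums was -1.36 at day 8 and -1.26 at day 15.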

How the data were processed

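Plasma vesicle RNA was sequenced in 24 libraries in 4 groups of 6, grouped by the sample titles. The table deposited by the authors holds expected counts per gene, all whole numbers; STAR and RSEM were used per the submitters' processing notes, which give no versions and name hg38 as the build, although the gene identifiers are Ensembl ones of the mouse. The build used for alignment is therefore not established. Coordinates come from GENCODE M21 (GRCm38) by identifier, which matched 21860 of 21960 genes. Total counts ran from 101733 to 937963 per library. No molecular identifiers are named in the labels, so copies of 1 molecule may have been counted more than once. Intervals (Clopper-Pearson, 95%, scipy 1.17.1) treat each count as independent. They cover neither such copies nor the spread between libraries, and may be too narrow.

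Low genes were removed by filterByExpr (minimum count 10, minimum total 15), and the others were normalised by TMM (factors 0.667 to 1.24) and tested with edgeR 4.0.16 (quasi-likelihood, all 24 libraries, Benjamini-Hochberg threshold 0.05; R 4.3.3), after the script was tested on simulated data with 200 altered genes. Correlations used a prior count of 2. DESeq2 1.42.0 was an alternative, and alternatives kept the 4112 tested genes unless the filter itself was dropped. The members and gene lists were chosen with earlier results of these data known. All 10 members were named; of other lists, up to 3 genes that passed per comparison, or else the gene with the most counts, were named. The rule also took the 5 tested genes most like the summed heart genes; some genes that the rules took are not reported here. Myh7, Myom1 and Pygm were named outside this rule. So were the genes of the 8 pairs that are not members, the other skeletal copies set beside them, and the skeletal genes without a count. No rule chose the pairs. Same-numbered ligation and sham libraries of day 8 had correlations of 0.165 to 0.327 (6 of 6 over 0.1). Those of day 15 had correlations of -0.031 to 0.113 (1 of 6). Correlations between differently numbered libraries were not computed, and depth moved with the number at day 8. A pairing by number is therefore not shown, and the labels do not give one. No 2 libraries of a group agreed within sampling noise (chi-square per degree of freedom of at least 1.74).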

Additional observations from a re-analysis of the deposited data

Results flagged for a closer look

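Among 48 groups of 6 values checked (10 genes and 2 sums over 4 groups), 9 held a library that stood apart by Dixon's criterion at 95%. Independent, normally distributed values meet it in about 1 group in 20. The values here rest on few counts and on genes that vary together, so that rate does not apply to them. Ligated library 2 of day 15 was the high value in 5 of the 9. It had 217 CPM of Myh6 where the next ligated library had 87.1, 68 CPM of Myl2 where the next had 26.7, and 97.2 CPM of Tnnt2 where the next had 25.9. It also had 61.5 CPM of Tnni3 where the next had 6.34, and a heart gene sum of 499 CPM where the next had 189. In the sham group of day 15, library 1 had 141 CPM of Tnnt2 against 57.9 in the next, and library 3 had 12.4 CPM of Pln, below 28.9 in the next lowest. At day 8, ligated library 1 had 14.4 CPM of Tnni3 from 2 counts, where the next ligated library had 1.37, and sham library 1 had 9.56 CPM of Acta1, where the next had 3.52.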

How the results depend on the processing

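The number of genes called moved with the filter: without it, 35 were lower and 263 higher at day 8, 135 and 553 at day 15, 29 and 22 for the difference between days, 275 and 377 for day 15 against day 8 after ligation, and 112 and 38 after sham surgery. DESeq2 called 24 lower at day 8, 1 higher for the difference, and 4 lower and 1 higher between the days after sham surgery. With the library number as a replicate block, 33 were lower at day 8, 71 lower at day 15 and 1 higher for the difference; with a block shared across days, which was added after seeing the data, 53 were lower between the days after ligation. Day 8 libraries 1 to 3 alone gave 3 lower, and libraries 4 to 6 gave 2 lower and 16 higher. Leaving out 1 library gave 4 to 16 lower and 52 to 136 higher at day 8, 24 to 59 and 100 to 171 at day 15, 0 to 2 higher for the difference, 5 to 176 lower and 29 to 160 higher between days after ligation, and 0 to 4 lower and 0 to 1 higher after sham surgery. The cause was not tested.

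The direction of all 6 tested members held for ligation against sham under every alternative run except in day 8 libraries 1 to 3, where Myh6 was 0.13 and Ttn 0.04. Without the filter Myl2 passed at day 8 (adjusted p = 0.0137) and Actc1 (0.0173), Myh6 (0.00357), Myl2 (0.0169) and Ttn (0.00213) passed at day 15, in edgeR. The block made Actc1 pass at day 15 (-1.53, adjusted p = 0.0306). The call of Pln at day 8 was lost with Lars2 left out (adjusted p = 0.0522) and with only the groups compared (0.128), and kept with RLE scaling and DESeq2. Several comparisons of days changed sign. Actc1 after sham surgery was -0.02 without the filter, and Tnnt2 in the difference was -0.09 with DESeq2. With 1 library left out, the difference between days ran from -0.37 to 0.48 for Myl2, -0.72 to 0.73 for Tnnt2 and -0.79 to 0.16 for Ttn. Day 15 against day 8 after ligation ran from -0.45 to 0.61 for Myh6, -0.15 to 0.7 for Myl2, -0.22 to 0.88 for Tnnt2 and -0.15 to 0.8 for Ttn. After sham surgery it ran from -0.18 to 0.48 for Actc1 and -0.06 to 0.76 for Tnnt2. The block within each day was not run for comparisons of days. Low counts limit what Acta1, Actn2 and Ckm can show.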

Other observations

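Among the further heart genes, the beta myosin heavy chain gene Myh7 stood opposite to its neighbour Myh6; it was chosen after its values were seen. Myh7 encodes the myosin of slow skeletal fibres and of the fetal mouse ventricle. It had 0 to 43.1 CPM with a median of 18.7 after ligation, against 0 to 3.52 CPM with a median of 1.53 after sham surgery at day 8, from 36 and 4 counts. At day 15 it had 0 to 126 CPM with a median of 9.62 after ligation, against 0 to 7.7 CPM with a median of 0 after sham surgery, from 63 and 3 counts. The ratio of normalised counts was 9.38 at day 8 (exact interval 3.36 to 36.3) and 16.3 at day 15 (exact interval 5.31 to 80.9), counting error only.

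In the edgeR fit without a filter, where 1.41% of 18710 genes passed as higher at day 8 and 2.96% at day 15, Myh7 had log2 fold changes of 3.06 (SE 0.69, adjusted p = 0.00118) and 3.72 (SE 0.69, adjusted p = 7.1e-06). It passed in 12 of 12 refits without 1 library on each day, with adjusted p-values up to 0.0162 and 0.0484. Those refits share the fit without a filter, the more lenient one, and do not check its leniency. Myh7 did not pass with DESeq2 (adjusted p = 0.197 and 0.0864). Of its 63 counts at day 15, 39 were in ligated library 2, the library highest in the heart genes, without which the log2 fold change was 2.62 (adjusted p = 0.0484), and 2 of the 6 ligated libraries had no count. Myh6 and Myh7 lie next to each other on chromosome 14. Their sequences were not compared, and no source used here says how any shared reads were divided, so the division of reads between them is uncertain.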
